A study of Homo sapiens with 8 samples.

Results

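The nuclear genes for the subunits of the mitochondrial respiratory chain and ATP synthase were followed in 2 human cell lines after GATA6, a transcription factor, was targeted with an shRNA (short hairpin RNA). In Caco-2 cells with the shRNA, 34 of the 70 tested members fell and 2 rose, where 19.2% of all tested genes fell and 19.5% rose. In HUG1N cells with the shRNA, 12 fell and 10 rose, smaller shares than the 23.9% and 24.7% of all tested genes. Members were the genes whose symbol starts with NDUFA, NDUFB, NDUFC, NDUFS, NDUFV, SDHA, SDHB, SDHC, SDHD, UQCR, COX4, COX5, COX6, COX7, COX8 or ATP5, each read from its brightest probe set over the 8 arrays. This gave 75 of the 11963 genes with a probe set. By name, 28 are complex I subunits, 3 complex II, 6 complex III, 12 complex IV and 15 complex V. The prefixes also take in 7 assembly factors, the ATP synthase inhibitor ATP5IF1, the supercomplex factor COX7A2L, the pseudogene ATP5MC2P1 and the antisense RNA NDUFB2-AS1.

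Of the 75 members, 70 had a log2 value over 4 in at least 2 arrays and were tested. The other 5 were COX6A2 and COX7A1, the heart and skeletal muscle forms of their subunits, the assembly factor NDUFAF5, NDUFB2-AS1 and ATP5MC2P1. COX6A2, COX7A1 and NDUFAF5 lay at the floor of the values, 2.08, on all 8 arrays. Probe sets that name several genes, 10 in all, were left out, and the 13 mitochondrially encoded subunits were not analysed here.

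Oxidative phosphorylation is the chain of reactions by which mitochondria turn the energy of NADH and succinate into ATP. Complexes I and II pass electrons to ubiquinone, complex III passes them to cytochrome c and complex IV to oxygen, and the proton gradient that I, III and IV build drives complex V, the ATP synthase. Most subunits are encoded in the nucleus and a minority in mitochondrial DNA. Absorptive cells of the intestine, which Caco-2 cells come to resemble when grown confluent, are rich in mitochondria, and their nutrient uptake runs largely on this ATP.

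The study compared cells given the GATA6 shRNA with control cells in both lines, with 2 arrays in each of the 4 groups. Caco-2 is a line from a human colorectal adenocarcinoma, and HUG1N, which the labels also call HuG-1, is given there without a tissue. GATA6 is a zinc finger protein of the gut and other endoderm-derived organs. The labels state that cells were infected and selected with puromycin, but they leave the treatment of the controls, the length of selection, the number of hairpins and the origin of the replicate arrays unstated. Replicates may thus be technical, and each p-value reflects array-to-array spread alone. In bulk RNA, fewer cells of a kind and less RNA per cell cannot be told apart.

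GATA6 itself was at log2 12.63 and 12.45 in Caco-2 control cells and at 12.23 and 12.02 with the shRNA, a fall of 0.42 ± 0.10 (SE, adjusted p = 0.0224). In HUG1N it was at 12.54 and 12.45 in control cells and at 12.26 and 12.22 with the shRNA, a difference of -0.25 ± 0.10 that did not pass the threshold (adjusted p = 0.0879). All 8 of 8 epithelial markers were over log2 4 in every group. Of 7 intestinal markers, 6 were over 4 in both Caco-2 groups, 3 in HUG1N control cells and 2 in HUG1N shRNA cells, while of 6 gastric markers 2, 2, 5 and 4 were. Summed log2 levels of the marker lists moved with the shRNA too. On Caco-2 arrays the epithelial sum was 101.0 to 101.2 in control and 107.7 to 108.0 in shRNA cells, the intestinal sum 63.7 to 64.3 and 59.8 to 60.3, and the gastric sum 31.3 to 31.4 and 23.7 to 24.3. The sum of 9 fibroblast markers was 22.6 on both Caco-2 control arrays and 26.5 to 27.1 with the shRNA, with COL1A1 over 4 in every group and LUM in Caco-2 shRNA cells alone. That of 6 immune markers was 28.1 to 28.5 and 23.1 to 24.2, with CD74 and LYZ over 4 in every group and CD14 in Caco-2 control cells alone. On HUG1N arrays, control then shRNA, the epithelial sum was 98.9 to 99.0 and 102.2 to 102.6, the intestinal 32.3 to 33.5 and 28.8 to 29.8, the gastric 55.2 to 55.8 and 49.5 to 50.1, the fibroblast 21.2 to 21.7 and 21.1 to 21.7, and the immune 27.7 to 27.8 and 25.9 to 26.3. None of 4 muscle markers was over 4 in any group. The gap between the 3' and 5' probe sets of ACTB, a measure of RNA integrity and labelling, was 1.92 ± 0.02 (SD, n = 2) in Caco-2 control, 1.55 ± 0.13 in Caco-2 shRNA, 2.51 ± 0.23 in HUG1N control and 3.73 ± 0.06 in HUG1N shRNA cells. The part of these differences in the results was not tested.

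In Caco-2 cells the shRNA went with lower values across all 5 complexes. The log2 difference, shRNA minus control, was below 0 for 64 of 70 members, and its median was -0.25, a fall of 16.2%, beside -0.003 over all 7696 tested genes. A gene is called here when its adjusted p is under 0.05. Of the 70 members 34 (48.6%) were called lower, where 19.2% of all tested genes were, and 2 higher, where 19.5% were. For 59 members the higher shRNA array was still under the lower control array (37.5% of all genes), and for 6 the reverse held (36.0% of all genes). Tested genes outside the set with a mean over log2 12, 751 in all, had a median difference of 0.01, with 110 lower and 141 higher. The size of the calls depended on single arrays. The number of members called lower was 17 without control replicate 1, 11 without control replicate 2, 14 without shRNA replicate 1 and 22 without shRNA replicate 2, beside 12.4%, 11.4%, 13.7% and 13.7% of all genes called lower in those fits. The members' median stayed between -0.28 and -0.22 in the same 4 fits. Of the 36 members called, 10 were called under every alternative setting run: ATP5MC1, ATP5MC3, ATP5ME, ATP5PF, COX7B, COX7C, NDUFA3, NDUFA6, NDUFS1 and UQCRC2.

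**Figure D1:**
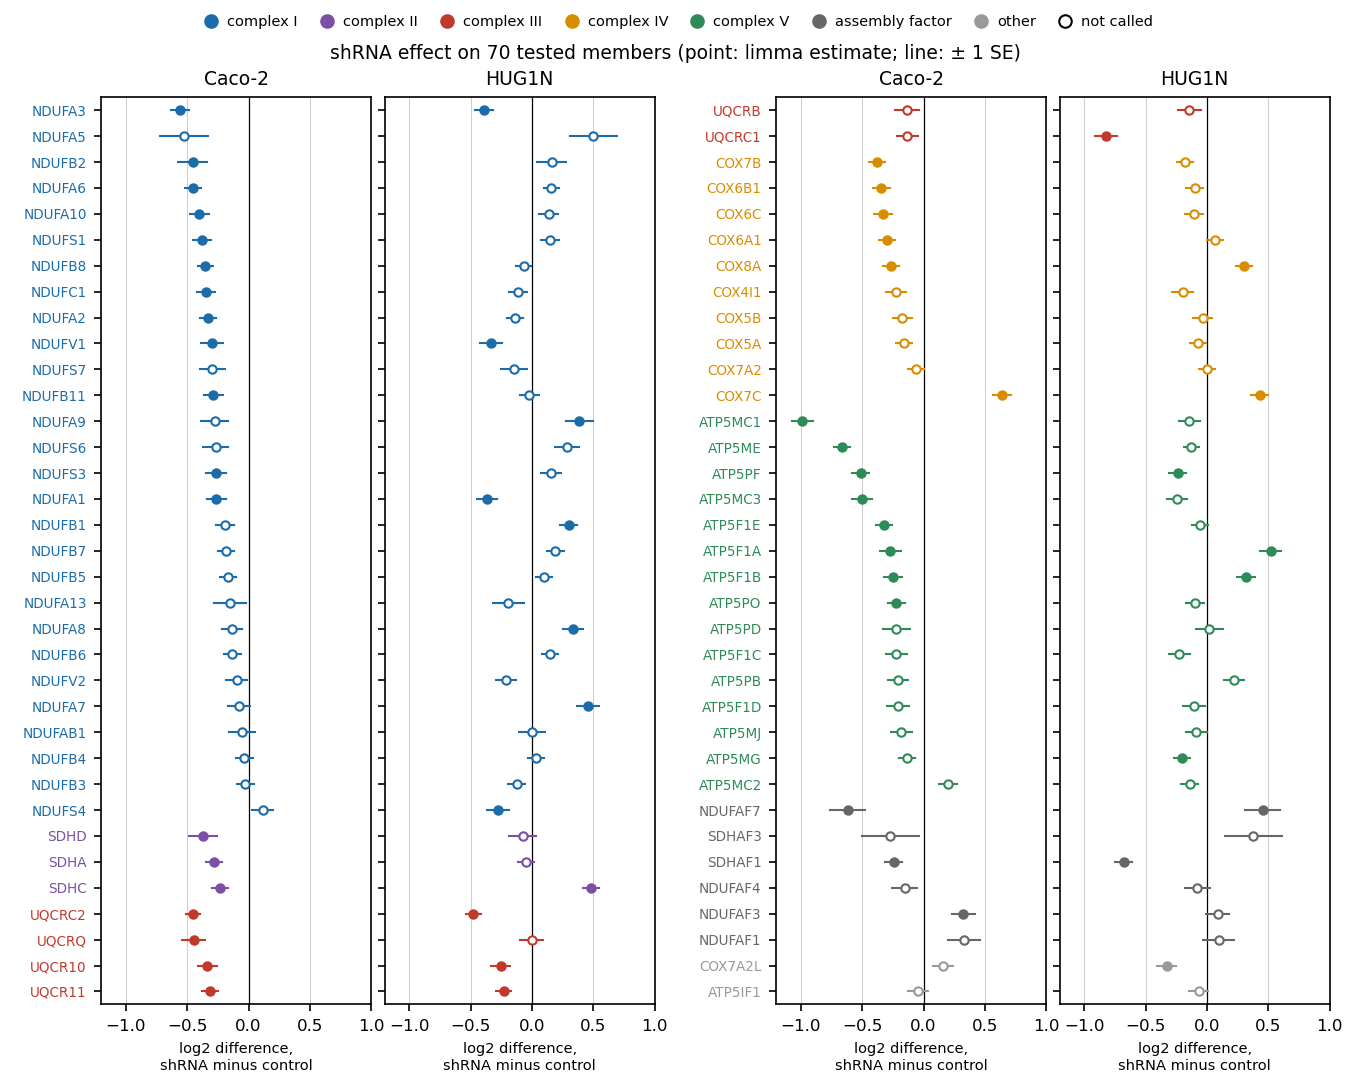
Log2 difference between shRNA and control cells for each of the 70 tested members in Caco-2 (left of each pair) and HUG1N (right of each pair), coloured by complex. Points are limma estimates, lines are ± 1 SE, and filled points have an adjusted p under 0.05; 34 filled points lie left of 0 in Caco-2 and 12 in HUG1N.

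Complex I, the NADH dehydrogenase, had 12 of its 28 tested subunits called lower in Caco-2 and none called higher, with a median difference of -0.27. By sign, 27 of the 28 differences were below 0. NDUFA3, an accessory subunit of the membrane arm, was at 12.91 and 13.03 in control cells and at 12.37 and 12.45 with the shRNA. This was a fall of 0.56 ± 0.07 (SE, adjusted p = 0.00228), and the groups did not overlap. NDUFA6, an accessory subunit of the LYR protein family, went from 13.57 and 13.58 to 13.11 and 13.13, a fall of 0.45 ± 0.06 (adjusted p = 0.00243). NDUFS1, the large iron-sulfur subunit of the NADH-oxidising arm, went from 12.05 and 12.12 to 11.69 and 11.71, a fall of 0.38 ± 0.07 (adjusted p = 0.00789). Of the 5 core subunits measured, NDUFS1, NDUFS3 and NDUFV1 were called lower, while NDUFS7 (-0.29, adjusted p = 0.0694) and NDUFV2 (-0.10, adjusted p = 0.417) were not. NDUFV1, which binds NADH, was called at adjusted p = 0.0408 and lost the call in 9 alternatives, among them each fit that left out a Caco-2 array. NDUFS4, an accessory subunit of the same arm, stood at 11.41 and 11.43 in control cells and 11.47 and 11.59 with the shRNA and was the only complex I subunit with a difference above 0 (0.12 ± 0.09, adjusted p = 0.337).

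All 3 complex II subunits measured were called lower in Caco-2. SDHA, the flavoprotein that oxidises succinate, went from 11.50 on both control arrays to 11.20 and 11.25, and SDHC, a membrane anchor, from 12.20 on both to 11.95 and 11.98. SDHD, the other anchor, went from 14.33 and 14.12 to 13.93 and 13.77. The falls were 0.28, 0.23 and 0.37, with adjusted p of 0.0215, 0.0304 and 0.0404. None of the 3 kept its call in every alternative: SDHA and SDHC lost it in each fit that left out a Caco-2 array, and SDHD in 3 of those 4.

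Complex III, which moves electrons from ubiquinol to cytochrome c, had 4 of 6 subunits called lower in Caco-2. UQCRC2, a core protein on the matrix side, was at 13.55 on both control arrays and at 13.09 and 13.11 with the shRNA, a fall of 0.45 ± 0.06 (adjusted p = 0.00205). Its partner core protein UQCRC1 was at 12.71 and 12.90 against 12.63 and 12.71, where the groups overlapped and the difference of -0.13 ± 0.09 did not pass (adjusted p = 0.293). The small subunits UQCRQ, UQCR10 and UQCR11 fell by 0.45, 0.34 and 0.31. Their calls were lost without control replicate 2 and without shRNA replicate 1, and those of UQCRQ and UQCR11 also without control replicate 1. UQCRB, another small subunit, differed by -0.14 (adjusted p = 0.311).

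In complex IV, cytochrome c oxidase, 5 of 10 tested subunits were called lower in Caco-2 and 1 higher. COX7B, COX6B1, COX6C, COX6A1 and COX8A, all small nuclear subunits, fell by between 0.27 and 0.38. COX7B went from 14.49 and 14.53 to 14.13 and 14.12 and kept its call under every alternative, while the calls of the other 4 were lost without control replicate 2. COX7C, also a small nuclear subunit, went the other way, from 14.02 on both control arrays to 14.70 and 14.62 with the shRNA, a rise of 0.64 ± 0.07 or 55.6% (adjusted p = 0.0011). All 3 probe sets of COX7C were higher with the shRNA, by 0.51 to 0.67. COX4I1 and COX5A, regulatory subunits near the catalytic core, differed by -0.22 and -0.16 and were not called. Another COX4I1 probe set, with a mean of log2 13.80, gave -0.24 (adjusted p = 0.0443 in a fit over every measured probe set).

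The ATP synthase held the 2 largest falls among the members, those of ATP5MC1 and ATP5ME. Of its 15 subunits, 8 were called lower in Caco-2 and none higher. ATP5ME, subunit e of the membrane part, went from 13.36 and 13.42 to 12.73 and 12.72, a fall of 0.66 ± 0.06 or 36.9% (adjusted p = 0.00055). ATP5PF, coupling factor 6 of the peripheral stalk, went from 13.93 and 13.98 to 13.46 and 13.43, a fall of 0.51 ± 0.07 (adjusted p = 0.0025). The catalytic head and central stalk, ATP5F1A to ATP5F1E, had 3 of 5 called, with falls of 0.32 for ATP5F1E, 0.27 for ATP5F1A and 0.25 for ATP5F1B. The ATP5F1A and ATP5F1B calls were lost in each fit that left out a Caco-2 array, and ATP5F1E lost its call without control replicate 2.

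The 3 genes of the rotating c ring gave different values although they encode the same mature protein. ATP5MC1, ATP5MC2 and ATP5MC3 differ in the targeting peptide that is removed on import. ATP5MC1 was at 12.37 and 12.39 in Caco-2 control cells and at 11.34 and 11.44 with the shRNA, a fall of 0.99 ± 0.09 or 49.6% (adjusted p = 0.000428), the largest fall of any member. ATP5MC3 was at 14.56 and 14.60 against 14.03 and 14.13, a fall of 0.50 ± 0.08 (adjusted p = 0.00491), and its 2 probe sets gave -0.51 and -0.50. ATP5MC2 was at 12.31 on both control arrays and at 12.53 and 12.50 with the shRNA. The ATP5MC2 groups did not overlap, but its difference of 0.20 ± 0.07 did not pass the threshold (adjusted p = 0.07). In HUG1N none of the 3 was called, with differences of -0.15 (95% interval -0.35 to 0.06) for ATP5MC1, -0.14 (-0.32 to 0.03) for ATP5MC2 and -0.24 (-0.44 to -0.04, adjusted p = 0.0511) for ATP5MC3.

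**Figure D2:**
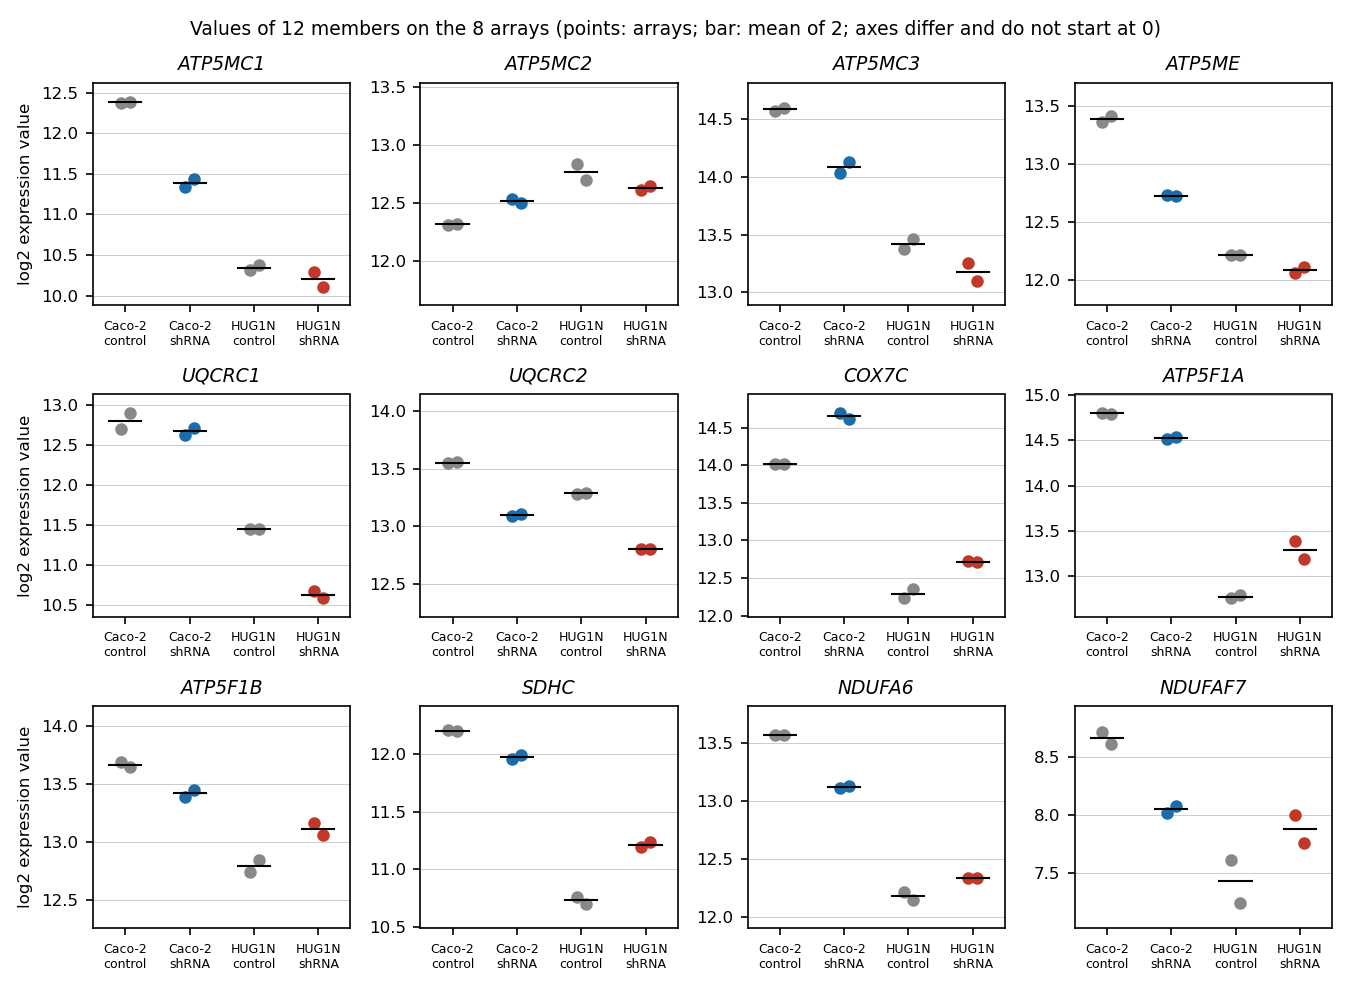
Log2 expression values of 12 members on each of the 8 arrays, with the mean of 2 arrays as a bar; the vertical axes differ between genes and do not start at 0. ATP5MC1 goes from 12.37 and 12.39 to 11.34 and 11.44 in Caco-2 while COX7C goes from 14.02 to 14.70 and 14.62; ATP5F1A and SDHC go down in Caco-2 and up in HUG1N.

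In HUG1N cells the members moved in both directions. Of the 70, 12 (17.1%) were called lower, where 23.9% of all tested genes were, and 10 higher, where 24.7% were, and the median difference was -0.07 beside 0 over all genes. The groups lay apart with the shRNA arrays lower for 31 members (37.3% of all genes) and higher for 22 (37.4% of all genes). With each array centred on its median over the tested genes, 8 were called lower and 13 higher, beside 22.4% and 26.8% of all tested genes. Fewer members, and fewer of all tested genes, were called in each fit that left out a HUG1N array. The members' median was -0.08 without control replicate 1, -0.03 without control replicate 2, -0.08 without shRNA replicate 1 and -0.04 without shRNA replicate 2. With the 4 HUG1N arrays fitted alone 6 were called in each direction, beside 19.9% of all tested genes lower and 19.3% higher. The mean of 16 hybridisation control probe sets was 12.11 ± 0.14 (SD, n = 2) on the HUG1N control arrays and 9.99 ± 0.02 on the shRNA arrays, against 11.83 ± 0.14 and 11.70 ± 0.11 in Caco-2. The part of this difference in the HUG1N results was not tested. Of the 22 members called, ATP5F1A, NDUFA3, NDUFA7, SDHAF1, SDHC, UQCRC1 and UQCRC2 were called under every alternative setting run.

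Among the complexes, complex III had 4 of 6 subunits called lower in HUG1N and none higher, with a median of -0.24. UQCRC1 fell most, from 11.46 on both control arrays to 10.68 and 10.59, a fall of 0.82 ± 0.09 or 43.5% (adjusted p = 0.000767). UQCRC2 went from 13.28 and 13.29 to 12.80 and 12.81, a fall of 0.48 ± 0.06 (adjusted p = 0.00125). UQCR10 and UQCR11 fell by 0.25 and 0.23, calls that were lost with median centring, and without control replicate 2 and without either shRNA array.

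Complex I had 4 subunits called lower and 4 higher of 28 in HUG1N. These are 14.3% in each direction, smaller shares than the 23.9% lower and 24.7% higher of all tested genes. NDUFA3 fell by 0.39 ± 0.07, from 12.06 and 11.98 to 11.65 and 11.61 (adjusted p = 0.00663), and NDUFA1, NDUFV1 and NDUFS4 fell by 0.37, 0.34 and 0.28. NDUFA7, an accessory subunit, rose from 9.84 and 9.90 to 10.42 and 10.24, by 0.46 ± 0.09 (adjusted p = 0.00756), and NDUFA9, NDUFA8 and NDUFB1 rose by 0.38, 0.33 and 0.30. Of these 8, NDUFA3 and NDUFA7 kept their calls in every alternative, NDUFA1 lost its call without control replicate 2, and each of the others lost it in at least 2 fits that left out a HUG1N array.

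SDHC, the complex II anchor, rose in HUG1N from 10.76 and 10.70 to 11.19 and 11.24, by 0.48 ± 0.06 (adjusted p = 0.00157). ATP5F1A, the alpha subunit of the ATP synthase head, rose from 12.75 and 12.79 to 13.39 and 13.18, by 0.52 ± 0.08 (adjusted p = 0.00351), and ATP5F1B, the catalytic beta subunit, by 0.32 ± 0.08 (adjusted p = 0.015), a call lost without control replicate 1 or shRNA replicate 1. ATP5PF fell by 0.24, a call lost in 7 of 18 alternatives, among them the fits without control replicate 2 and without either shRNA array. ATP5MG, subunit g, differed by -0.21 (adjusted p = 0.0406), a call lost in 11 of 18 alternatives, including each fit that left out a HUG1N array, and it was 0.34 on another probe set. In complex IV, COX7C rose by 0.43 ± 0.07, from 12.23 and 12.35 to 12.72 on both arrays (adjusted p = 0.00381), and COX8A by 0.30, a call lost without control replicate 1, and none was called lower. The COX7C rise was not called in HUG1N with a probe set without cross-hybridisation marks (adjusted p = 0.29).

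The assembly factors were called in both directions in each line. In Caco-2 cells 2 of the 6 tested were called lower and 1 higher, beside 19.2% and 19.5% of all tested genes. In HUG1N 1 was called in each direction, beside 23.9% lower and 24.7% higher of all tested genes. Counts over 6 genes are too small to be read against these shares. SDHAF1, which helps insert iron-sulfur clusters into complex II, was at 9.41 and 9.40 against 9.14 and 9.19 in Caco-2 and at 7.66 and 7.60 against 6.897 and 7.005 in HUG1N. It fell by 0.24 ± 0.07 and by 0.68 ± 0.07, and the Caco-2 call was lost in each fit that left out a Caco-2 array. NDUFAF7, a methyltransferase of complex I assembly, fell in Caco-2 from 8.72 and 8.61 to 8.02 and 8.08, by 0.62 ± 0.14 (adjusted p = 0.0178), and rose in HUG1N from 7.62 and 7.24 to 8.004 and 7.76, by 0.45 ± 0.14 (adjusted p = 0.041). Its Caco-2 call was lost without any of the 4 Caco-2 arrays, and its HUG1N call without any of the Caco-2 arrays, without HUG1N control replicate 2 or shRNA replicate 1, with no filter and with the line fitted alone. NDUFAF3 rose in Caco-2 from 10.10 and 10.31 to 10.45 and 10.61, by 0.33 ± 0.09 (adjusted p = 0.0375), a call lost without control replicate 1, without shRNA replicate 2 and without any of the HUG1N arrays, which share the estimate of spread. COX7A2L, a factor that joins complexes III and IV into supercomplexes, was at 12.69 and 12.70 against 12.86 and 12.84 in Caco-2, a difference of 0.16 that did not pass, and fell in HUG1N from 12.69 and 12.67 to 12.26 and 12.44, by 0.33 ± 0.08 (adjusted p = 0.0159), a call lost without either HUG1N control array. ATP5IF1, which blocks ATP hydrolysis by the synthase, was called in neither line, with differences of -0.05 and -0.07.

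Set side by side, 8 members were called lower in both lines: UQCRC2, UQCR10, UQCR11, NDUFA1, NDUFA3, NDUFV1, ATP5PF and SDHAF1. Of all 7696 tested genes 530 (6.89%) were called lower in both lines, to be set beside 8 of the 70 members. The 8 are 23.5% of the 34 members called lower in Caco-2, a smaller share than the 530 of 1478 tested genes called lower there. They are 66.7% of the 12 members called lower in HUG1N, a larger share than the 530 of 1843 tested genes called lower there. COX7C was called higher in both, as were 6.29% of all tested genes. A further 5 were called lower in Caco-2 and higher in HUG1N (3.44% of all tested genes): ATP5F1A, ATP5F1B, COX8A, NDUFAF7 and SDHC. By sign alone, 39 members (55.7%) were below 0 in both lines, 25 (35.7%) below 0 in Caco-2 and above 0 in HUG1N, and 3 (4.29%) above 0 in both. Over all tested genes these shares were 27.3%, 22.8% and 26.8%. Across the 70 genes the 2 sets of differences had a Pearson correlation of 0.07 and a Spearman correlation of 0.06, beside 0.14 and 0.15 across all tested genes. The 2 sets share no arrays, and genes are not independent replicates.

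The difference between the lines was tested directly as the HUG1N effect minus the Caco-2 effect. It was called above 0 for 23 members (22.2% of all tested genes) and below 0 for 5 (22.7% of all tested genes), with a median of 0.23 beside 0.002 over all genes. Calls above 0 were fewer in every fit that left out 1 array. Without Caco-2 control replicate 2 the members' share called above 0 was not larger than that over all tested genes. The members' median stayed between 0.19 and 0.25 in these fits. For ATP5F1A the difference between the lines was 0.79 (95% interval 0.50 to 1.08, adjusted p = 0.00333), for SDHC 0.71 (0.50 to 0.93, adjusted p = 0.00176), for ATP5MC1 0.84 (0.55 to 1.14, adjusted p = 0.0028) and for UQCRC1 -0.69 (-0.996 to -0.39, adjusted p = 0.00625). UQCRC2 gave -0.03 (-0.23 to 0.18), so a difference between the lines larger than about these bounds was not seen for it. For COX7C it was -0.21 (-0.45 to 0.04, adjusted p = 0.14). Complex I had 13 of 28 subunits called above 0 and 1 below.

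More members were called between the control cells of the 2 lines than with the shRNA in either line. Against Caco-2 control cells, HUG1N control cells had 52 of the 70 members called lower, where 41.3% of all tested genes were, and 8 higher, where 37.1% were. The median difference was -0.84 beside -0.05 over all genes. Line and any batch cannot be told apart here. NDUFA9, an accessory complex I subunit at the joint of its arms, was at 12.28 and 12.29 in Caco-2 and at 10.00 and 10.01 in HUG1N, 4.86-fold lower, the largest difference among members. ATP5MC1 was 4.10-fold lower, ATP5F1A 4.09-fold, SDHAF1 3.43-fold and COX7C 3.32-fold. In the other direction, the complex I subunit NDUFB4 was higher in HUG1N by 0.70, the complex IV subunits COX6C and COX6A1 by 0.67 and 0.46, ATP5MC2 by 0.46, NDUFA1 by 0.45 and ATP5IF1 by 0.82. ATP5MC1 and ATP5MC3 were lower in HUG1N by 2.03 and 1.16 on the log2 scale, so the c ring genes differed in sign in this comparison too.

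**Figure D3:**
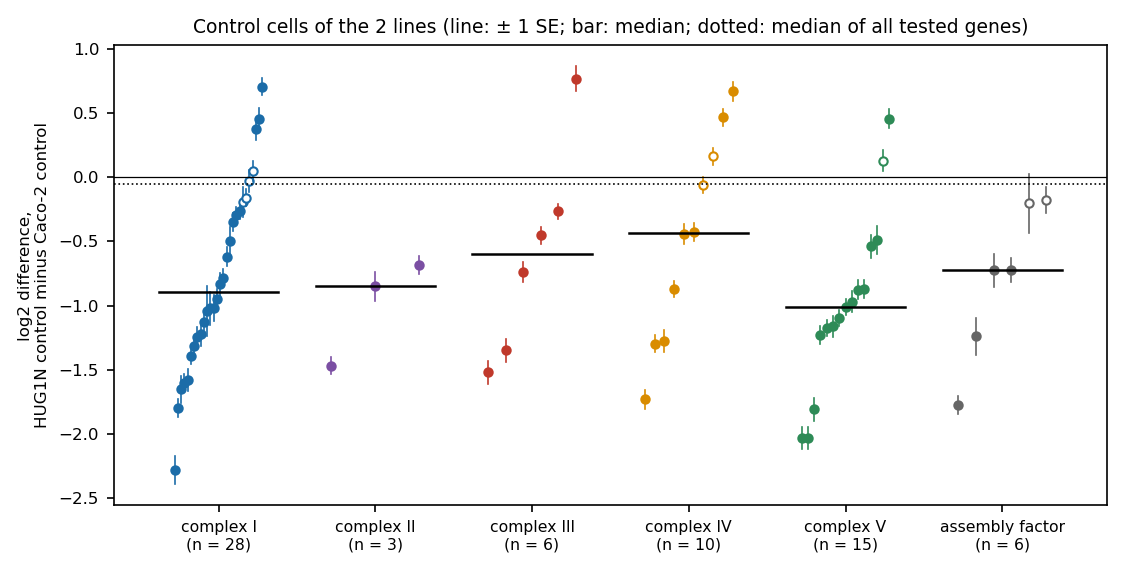
Log2 difference between HUG1N control and Caco-2 control cells for 68 tested members by class, with ± 1 SE, the class median as a bar and the median over all tested genes (-0.05) as a dotted line; filled points have an adjusted p under 0.05. The class medians lie below the dotted line, and complex V has the lowest, -1.01.

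Promoter sequences were compared for the members that the results turn on. RefSeq promoters on GRCh38.p14, 250 bases before to 50 after the annotated start, were matched for 63 of the 70 tested members. The c ring genes ATP5MC1 and ATP5MC2 are shown because they went apart in Caco-2, ATP5ME because it had the largest fall after ATP5MC1 in the ATP synthase, UQCRC2 because it fell in both lines and COX7C because it rose in both. Each sequence is in lower case, 5' to 3' on the gene's strand, with capitals at letters that match a motif searched on both strands: NRF1 (CGCATGCG), ETS (CCGGAAG), YY1 (AAGATGG), ERR (AAGGTCA) and, for the GATA factors, the letters AGATAA. Motifs whose ends share letters could overlap and were counted for each. For the GATA factors AGATAA was the only form searched. Other forms, such as the TGATAA in the COX7C window, were neither marked nor counted. The windows are chr17:48892537-48892836 (+) for ATP5MC1, chr12:53676034-53676333 (-) for ATP5MC2, chr4:674227-674526 (-) for ATP5ME, chr16:21953111-21953410 (+) for UQCRC2 and chr5:86617691-86617990 (+) for COX7C.
ATP5MC1: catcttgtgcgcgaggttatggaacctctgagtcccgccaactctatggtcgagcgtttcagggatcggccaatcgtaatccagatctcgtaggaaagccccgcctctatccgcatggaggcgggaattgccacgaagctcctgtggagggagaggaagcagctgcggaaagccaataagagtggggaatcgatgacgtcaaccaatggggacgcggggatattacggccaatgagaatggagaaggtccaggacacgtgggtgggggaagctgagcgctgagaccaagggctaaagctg
ATP5MC2: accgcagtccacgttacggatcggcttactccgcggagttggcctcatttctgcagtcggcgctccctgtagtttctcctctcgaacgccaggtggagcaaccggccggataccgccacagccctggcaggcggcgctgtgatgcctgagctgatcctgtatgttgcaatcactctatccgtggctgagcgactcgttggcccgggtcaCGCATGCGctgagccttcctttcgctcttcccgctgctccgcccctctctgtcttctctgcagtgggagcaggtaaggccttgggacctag
ATP5ME: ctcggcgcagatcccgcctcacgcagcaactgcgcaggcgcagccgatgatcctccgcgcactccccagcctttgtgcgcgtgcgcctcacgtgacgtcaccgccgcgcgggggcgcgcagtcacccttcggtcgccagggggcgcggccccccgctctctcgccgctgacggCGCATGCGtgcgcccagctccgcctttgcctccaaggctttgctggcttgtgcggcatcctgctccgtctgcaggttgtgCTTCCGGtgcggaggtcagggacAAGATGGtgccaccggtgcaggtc
UQCRC2: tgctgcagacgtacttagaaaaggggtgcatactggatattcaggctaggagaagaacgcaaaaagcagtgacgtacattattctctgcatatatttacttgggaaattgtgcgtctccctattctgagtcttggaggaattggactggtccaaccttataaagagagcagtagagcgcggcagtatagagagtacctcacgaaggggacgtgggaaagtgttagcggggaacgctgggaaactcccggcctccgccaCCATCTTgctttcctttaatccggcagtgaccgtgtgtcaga
COX7C: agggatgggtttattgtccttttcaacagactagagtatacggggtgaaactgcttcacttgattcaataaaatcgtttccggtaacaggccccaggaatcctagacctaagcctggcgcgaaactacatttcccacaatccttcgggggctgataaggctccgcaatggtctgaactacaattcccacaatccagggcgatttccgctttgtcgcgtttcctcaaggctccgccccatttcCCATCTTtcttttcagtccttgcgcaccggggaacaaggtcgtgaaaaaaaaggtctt
The ATP5MC1 window held none of the 5 motifs and that of ATP5MC2 held an NRF1 match. ATP5ME had NRF1, ETS and YY1 matches, and UQCRC2 and COX7C, which moved in opposite directions, each had a YY1 match on the minus strand close to the start. A match is a description of the letters and not a binding site.

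Across the 63 members, the NRF1 motif was in 15.9% of promoters, beside 3.99% of the 6338 other tested genes and 2.19% of all 27305 promoters. ETS was in 30.2%, beside 19.8% and 10.7%, YY1 in 22.2%, beside 8.38% and 6.06%, and ERR in 12.7%, beside 2.32% and 3.97%. These are the motifs of factors long known for nuclear mitochondrial genes. AGATAA, the only GATA form searched, was in 9.52% of member promoters, 6 in all, beside 4.84% and 10.5%. Of the 30 members called lower in Caco-2 with a promoter, 1 held AGATAA, and of the other 33 members 5 did. The NRF1 motif was in 4 of the 30 and 6 of the 33, and the ETS motif in 11 and 8.

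Related mitochondrial lists were read from the same fit. In Caco-2, the share called lower was above the background of 19.2% for electron carriers and ubiquinone synthesis (7 of 18, with 2 higher), for the citric acid cycle and pyruvate dehydrogenase (7 of 17, with 1 higher), for assembly factors outside the prefixes (7 of 23, with 1 higher) and for mitochondrial carriers and import (9 of 36, with 3 higher). Mitochondrial DNA upkeep (3 of 13) and antioxidant enzymes (2 of 9) were within 1 gene of the background, and regulators of biogenesis (2 of 15) below it. SUCLG1 and SUCLG2, subunits of succinyl-CoA ligase, fell by 0.73 ± 0.07 and 0.73 ± 0.08 (adjusted p = 0.00065 and 0.00125). COX11 and COX20, which help build complex IV, fell by 0.82 ± 0.09 and 1.06 ± 0.12, and COQ9, of ubiquinone synthesis, by 0.92 ± 0.09. COQ10B and COQ6, on the same list as COQ9, rose by 0.87 ± 0.07 and 0.75 ± 0.07 (adjusted p = 0.000377 and 0.000517). TFAM, which packages and transcribes mitochondrial DNA, fell by 0.36 ± 0.09 (adjusted p = 0.0184), and NRF1, a transcription factor of nuclear mitochondrial genes, by 0.56 ± 0.12 (adjusted p = 0.0125). HIGD1A, a hypoxia-induced protein of the respiratory chain, rose by 1.07 ± 0.16.

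In HUG1N the shares over all tested genes were 24.7% higher and 23.9% lower, and several lists lay near them: carriers and import had 10 of 36 higher and 9 lower, and the citric acid cycle and pyruvate dehydrogenase 4 of 17 higher and 5 lower. Electron carriers and ubiquinone synthesis had 8 of 18 called higher and 3 lower, and assembly factors outside the prefixes 9 of 23 higher and 6 lower. COQ6, of ubiquinone synthesis, rose by 1.51 ± 0.07 (adjusted p = 5.37e-05), POLRMT, the mitochondrial RNA polymerase, fell by 0.96 ± 0.12 and ECSIT, a complex I assembly factor, by 1.46 ± 0.14. Of the 19 glycolysis genes, 16 were called lower and none higher, beside 4 lower and 3 higher in Caco-2.

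**Figure D4:**
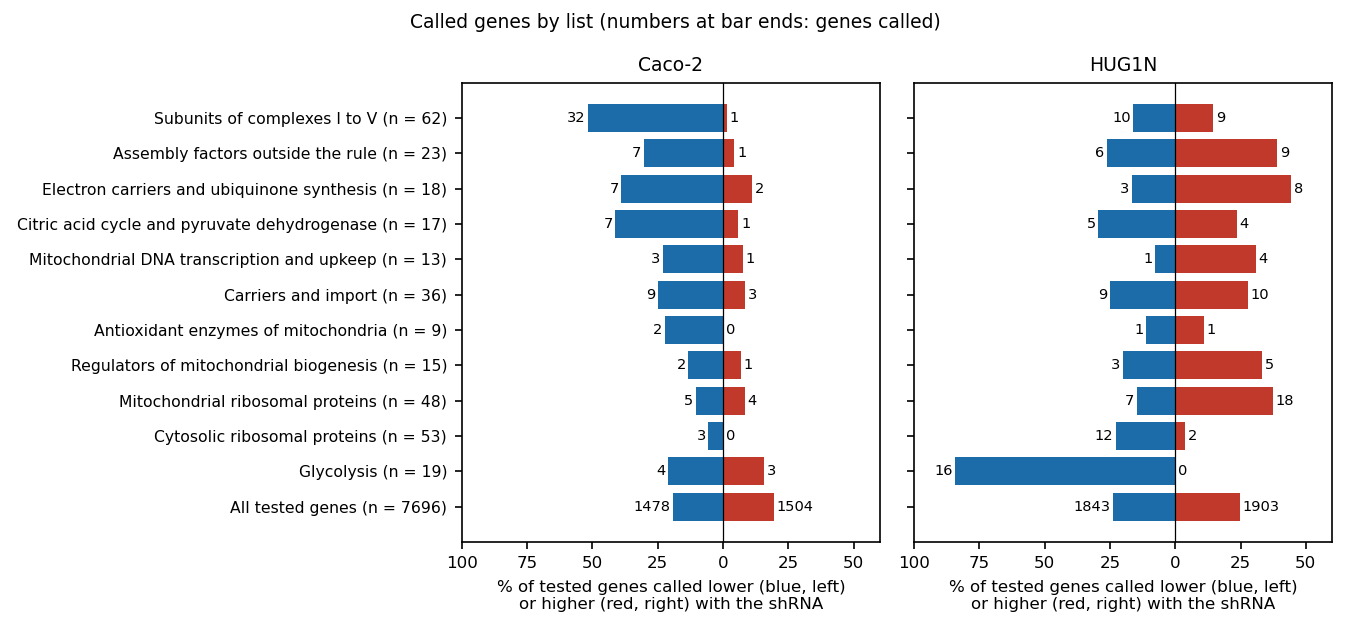
Percent of tested genes in each list called lower (blue, to the left) or higher (red, to the right) with the shRNA in Caco-2 and HUG1N, with the number of genes called at the bar ends. Subunits of complexes I to V were called lower for 32 of 62 genes in Caco-2 and for 10 of 62 in HUG1N, against 1478 and 1843 of 7696 tested genes.

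Members with several probe sets were checked for 1 direction. Of 17 members with at least 2 measured probe sets, all probe sets had the same sign in 15 in Caco-2, 14 in HUG1N, 14 between the control cells and 10 for the difference between the lines. For that difference the 7 that disagreed were ATP5F1C, ATP5F1D, ATP5MG, COX4I1, COX5B, NDUFB8 and UQCRC2. In Caco-2, the exceptions were ATP5F1C and ATP5MG. Some calls depended on the probe set. In a fit over every measured probe set, COX4I1 differed in HUG1N by -0.20 on its brightest probe set and by 1.26 on a dimmer one (adjusted p = 0.103 and 0.0299), and ATP5MG by -0.21 and 0.34 (adjusted p = 0.04996 and 0.0265). The dimmer COX4I1 probe set had a mean of log2 5.31, beside 14.02 for the brightest. The remaining COX4I1 probe set, with a mean of 13.80, gave -0.26 (adjusted p = 0.0244). Between control cells, UQCRB was higher in HUG1N by 0.77 on its brightest probe set and lower by 0.49 on another, and ATP5MJ lower by 0.97 and higher by 0.59. NDUFB8 fell in Caco-2 by 0.35 on the brightest, a call lost on another probe set (adjusted p = 0.21). On its dimmest probe set, with a mean of log2 7.56, it fell by 1.04 (adjusted p = 0.000983). In Caco-2, COX4I1, COX5B and ATP5MJ were not called on the brightest probe set and were called lower on a dimmer one. The differences there were -0.24, -0.24 and -0.42 (adjusted p = 0.0443, 0.0433 and 0.0196). In HUG1N some members not called on the brightest probe set were also called on a dimmer one. Among them, NDUFB8 differed there by -1.66, ATP5F1C by -1.51, NDUFA6 by 0.91 and NDUFB2 by 0.46 (adjusted p = 0.000192, 0.000162, 0.0045 and 0.00787).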

How the data were processed

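The authors deposited log2 values for every probe set on each array. Per the submitters' processing notes these came from GCRMA, whose version is not given in the sources used here. GCRMA corrects background by probe base content, quantile normalizes the arrays and summarises probes, which sets a floor (2.08, at which 28.7 to 29.9% of probe sets lay) and compresses small values. Array medians were 4.73 to 4.98. Of 22277 probe sets, 19070 named 1 gene, 1043 several and 2164 none, by the platform's annotation table, and 19058 matched an Entrez identifier. The brightest probe set stood for each gene, and genes with a log2 value over 4 in at least 2 arrays were tested. limma 3.58.1 in R 4.3.3 (lmFit on 4 group means, eBayes, 4 residual and 2.17 prior degrees of freedom) gave each contrast, with Benjamini-Hochberg adjustment over 7696 genes. The fit was also run on simulated data, with independent noise for each gene and no shift of a whole array. That run cannot show how differences in array quality act on the calls. Replicate numbers did not pair arrays: deviations of same-numbered arrays correlated between -0.06 and 0.07. The 2 arrays of a group limit the precision.

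The members and lists were chosen with earlier results of these data known. Named genes were drawn from the members called with the largest differences in each contrast, and not every such member is described. Also named were those called the same way in both lines, up to 15 called for the difference between lines, and members whose probe sets disagree in sign. Muscle isoforms and up to 3 genes per list with the smallest p were added. Members described beyond these, to complete a complex, were chosen after their values were seen. Alternatives were other filters, normalizations, variance models, probe set choices, a floor, a replicate block and leaving out each array.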

Additional observations from a re-analysis of the deposited data

Results flagged for a closer look

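The shRNA effect differed between the lines, by the direct test of HUG1N minus Caco-2 on the log2 scale, for the following members. The value was 1.07 for NDUFAF7, 0.84 for ATP5MC1, 0.79 for ATP5F1A, 0.71 for SDHC, 0.61 for NDUFA6, 0.57 for COX8A, 0.56 for ATP5F1B, 0.54 for NDUFA10, 0.54 for ATP5ME and -0.69 for UQCRC1, and these 10 were called under every alternative run. It was 1.02 for NDUFA5, 0.66 for NDUFA9, 0.61 for NDUFB2, 0.55 for NDUFS6 and 0.54 for NDUFA7, and these 5 lost the call when Caco-2 control replicate 2 was left out, beside other settings. NDUFA5, an accessory complex I subunit, was called in neither line alone: it was at 12.52 and 12.33 against 12.06 and 11.73 in Caco-2 and at 11.33 and 11.43 against 11.62 and 12.14 in HUG1N.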

How the results depend on the processing

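Over the 8 fits that left out an array, the count went from 36 to between 13 and 35 in Caco-2, from 22 to between 12 and 20 in HUG1N, from 28 to between 14 and 25 for the difference between the lines, and stayed between 60 and 61 for the control cells. The share of all tested genes called, both directions together, also fell in these fits for the first 3 contrasts. In HUG1N and for the difference between the lines, the members' share was below it in each fit. In Caco-2 the members' share was above it without shRNA replicate 2 or any HUG1N array. It was not above it without either Caco-2 control array or without shRNA replicate 1. With the HUG1N arrays fitted alone 12 members were called, and between control cells plain probe sets gave 56. The replicate block gave 27, 19, 24 and 60, and changed the count of no contrast by more than 1.5 times. The direction reversed with plain probe sets for ATP5MG in HUG1N (0.34), COX4I1 in HUG1N (1.26), ATP5MJ between control cells (0.59) and UQCRB between control cells (-0.49), and with the mean of probe sets for NDUFB8 in the difference (-0.11). Other filters, normalizations and variance models left the 4 total counts within 1.5 times. Of the called members, 10 of 36, 7 of 22, 13 of 28 and 56 of 60 were called under every alternative run. The number of arrays limits what small differences can show.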

Other observations

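Ribosomal protein genes, chosen after the members' values were seen, are set beside the shares over all tested genes, 19.2% lower and 19.5% higher in Caco-2 and 23.9% and 24.7% in HUG1N. Of 53 cytosolic ribosomal protein genes, 3 (5.66%) were called lower and none higher in Caco-2, with a median of 0.02, and 12 (22.6%, near the background) lower and 2 (3.77%) higher in HUG1N, with a median of -0.09. Of 48 mitochondrial ribosomal protein genes, which serve the translation of the mitochondrially encoded subunits, 5 were lower and 4 higher in Caco-2, and 18 higher and 7 lower in HUG1N, with a median of 0.15.

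The 19 tested glycolysis genes had a median difference of -0.83 in HUG1N, where 16 were called lower. ENO2, an enolase, fell by 2.89 ± 0.21 on the log2 scale (adjusted p = 0.000222). PDK1, the kinase that restrains pyruvate dehydrogenase, fell by 2.05 ± 0.10 (adjusted p = 7.38e-05), and LDHB, a lactate dehydrogenase subunit, fell by 1.22 ± 0.08 (adjusted p = 0.000144). In Caco-2, HK1, a hexokinase, rose by 4.22 ± 0.12, from a mean of 5.31 to 9.53.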
